A study of Mus musculus with 300 samples.

Results

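The 37 genes described here move glucose and lactate across the cell surface, run glycolysis from hexokinase to pyruvate, exchange pyruvate with lactate, and carry pyruvate into mitochondria and through the pyruvate dehydrogenase complex. They were chosen by name, with earlier results of these data known. All 37 have a row among the 23354 gene names of the table, and 30 passed the filter for testing, 1 FPKM or more in 30 or more cells. The 7 that did not were Slc16a3, Slc16a7, Pfkl, Pfkfb3, Pfkfb4, Eno2 and Pdk4. They were measured in 300 single spermatogonia from untreated adult mice that carried an ID4-EGFP reporter, whose brightness follows the locus of Id4, a transcription factor gene active in the most stem-like spermatogonia. Testis cells pooled from at least 2 mice per suspension passed a Percoll cushion and a sorter gate of EGFP signal plus high CD9, and single cells were caught on Fluidigm C1 chips and turned into cDNA without strand information. Each cell's EGFP signal placed it in a quartile from Q1, the brightest (79 cells), through Q2 (78 cells) and Q3 (71 cells) to Q4, the dimmest (72 cells). All groups therefore share the reporter, the sort gate and the lack of treatment, and cells without EGFP were not analysed here. The number from 1 to 4 in the sample titles was read as the replicate preparation. The preparations held 67, 82, 71 and 80 cells, each gave cells of all 4 quartiles, and the labels do not say which animals went into which. The p-values of quartile comparisons therefore measure how far quartile differences varied over these 4 preparations, with variances moderated over genes.

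Glycolysis splits glucose into pyruvate in the cytosol. Pyruvate is then reduced to lactate by lactate dehydrogenase, or taken into mitochondria by the carrier built from Mpc1 and Mpc2 and oxidised by the pyruvate dehydrogenase complex, which pyruvate dehydrogenase kinases switch off by phosphorylation. In the testis, Sertoli cells convert glucose to lactate, which later germ cells take up as fuel, and meiotic and later germ cells replace several of these enzymes by testis isozymes. Glycolysis and low oxygen are linked to the upkeep of spermatogonial stem cells in culture.

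The values are FPKM, which divide a gene's fragments by transcript length and by library size, so levels of different genes can be set side by side. A cell had 2934 to 7817 genes at 1 FPKM or more. The mean number per cell was 4368 in preparation 1 and 5572 to 6216 in the other 3, and by quartile it was 5687 ± 697 in Q1 and 5356 ± 810 in Q4 (SD over 4 preparations). The depth of a cell relative to the others, read from the spacing of its low values, was 1.03 ± 0.14 in Q1 and 1.01 ± 0.12 in Q4, and the number of reads is unknown. The label spermatogonium was checked against markers: at least 3 and at least 50% of 13 spermatogonial markers reached 5 FPKM in 290 of 300 cells. Among them the germ cell gene Dazl was at 1 FPKM or more in 100% of cells, Zbtb16 in 89.3%, Gfra1 in 58% and the differentiation marker Kit in 31%. By the same rule 9 cells carried macrophage or leukocyte markers (1 of Q1, 3 of Q2, 2 of Q3 and 3 of Q4) and 1 cell of Q4 carried peritubular myoid markers. No cell met it for pachytene spermatocytes, spermatids, Sertoli, Leydig, endothelial or erythroid cells, and the Sertoli markers Cldn11 and Fshr and the Leydig markers Cyp17a1 and Hsd3b1 were at 0 in every cell. Quartiles were compared with limma on means of log2(FPKM + 1) over the cells of a preparation and quartile, with the preparation as a block. An adjusted p is a Benjamini-Hochberg value over all 10411 tested genes, and a gene passed under 0.05.

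The kinase gene Pdk1 was higher in bright than in dim cells. Its mean level was 29.05 ± 12.9 FPKM in Q1 and 9.32 ± 5.69 FPKM in Q4 (SD, n = 4 preparations), and the 4 Q1 values lay above the 4 Q4 values on the log2 scale. The pyruvate kinase gene Pkm, the last step of glycolysis, was higher in Q1 than in Q4 in each of the 4 preparations. None of the other 28 tested members passed the threshold, in either direction. Q1 and Q4 differed in 2 of the 30 tested members, both higher in Q1, while 3.25% of all 10411 tested genes passed (2.72% higher and 0.528% lower in Q1). Over the slope across the 4 quartiles 1 member passed, Pdk1, against 4.51% of all tested genes.

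Pdk1 lies at chr2:71873224-71903858 on the plus strand of GRCm38 and encodes a kinase that phosphorylates and so inhibits pyruvate dehydrogenase. It is a textbook target of the hypoxia factor HIF1, whose core motif is ACGTG or GCGTG. Its promoter is shown because it belongs to the member that passed both tests. These are the 250 bases that end at the base before the gene start, chr2:71872974-71873223 of GRCm38.p6 from RefSeq, plus strand, with the match to that core on either strand in capitals.

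Pdk1 promoter: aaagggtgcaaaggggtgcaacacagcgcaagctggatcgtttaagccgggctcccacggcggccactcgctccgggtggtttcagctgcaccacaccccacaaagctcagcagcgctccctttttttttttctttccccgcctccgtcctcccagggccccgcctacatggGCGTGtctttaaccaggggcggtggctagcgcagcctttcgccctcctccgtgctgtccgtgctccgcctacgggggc

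The window held 1 match. For Pkm, the member that passed only between Q1 and Q4, the 250-base window read was chr9:59656326-59656575, and it held 0. It was the RefSeq window nearest the start of a transcript chosen for the gene. It runs past the outermost gene start, 59656368, unlike the window of Pdk1, and the 0 holds for that window alone. A match to ACGTG or GCGTG on either strand stood in 38.6% of 32851 promoter windows of this length and in 70.9% of the 55 windows of members. Of the 35 members with a window 29 (82.9%) had a match in at least 1 window, against 41.5% of 27025 genes. CACGTG, a motif that contains ACGTG, stood in at least 1 window of 6 of the 35 members (17.1%), against 6.86% of the 27025 genes, and in 10.9% of the windows of members, against 6.02% of all windows. Members had more windows per gene than other genes, which raises a share per gene. The windows set beside them were those of all genes, tested here or not, and were not matched for base composition. No enrichment was tested, and a match describes letters, not binding.

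In the brightest quartile the mean log2(FPKM + 1) of Pdk1 was 3.14, 3.98, 3.24 and 3.06 in preparations 1 to 4, and in the dimmest it was 1.99, 2.50, 1.72 and 0.77. In Q2 it was 2.83, 2.71, 3.10 and 3.06, and in Q3 2.61, 3.78, 4.05 and 2.09. The Q1 and Q4 values did not overlap, while Q2 and Q3 reached into the range of Q1. The difference between Q1 and Q4 was 1.61 (SE 0.38, 95% confidence interval 0.82 to 2.40, adjusted p = 0.0177, higher in 4 of 4 preparations), and the slope was 0.46 per quartile (SE 0.13, adjusted p = 0.0393, positive in 4 of 4). Most of the difference stood between the 2 dimmest quartiles: Q3 exceeded Q4 by 1.39 (95% confidence interval 0.60 to 2.18), a comparison in which no member passed (adjusted p = 0.429 for Pdk1).

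The share of cells with at least 1 FPKM of Pdk1 was 64.7%, 80.95%, 78.9% and 72.7% in Q1 and 38.9%, 60%, 40% and 31.6% in Q4. Between the groups lay a gap of a few percentage points, from the highest Q4 value to the lowest Q1 value. Fitted as shares, the difference was 31.7 percentage points (adjusted p = 0.00937) and the slope 9.54 points per quartile (adjusted p = 0.0196). Over all 15 alternative settings the adjusted p of the Q1 to Q4 difference ran from 0.00937 to 0.125. The call was lost without preparation 2, 3 or 4 (adjusted p = 0.0664, 0.0681 and 0.123), without the replicate block (0.125), with no filter on low values (0.0537), with genes per cell as a covariate (1.66, 0.109) and for the log2 of mean FPKM (1.72, 0.102), and it was kept without the 10 cells that carried another cell type's markers (1.48, 0.0386). The slope lost its call in 11 of the 15, with adjusted p from 0.0196 to 0.266, among them each left-out preparation (0.0904, 0.0771, 0.0676 and 0.266 without preparations 1 to 4) and the fit without the block (0.152).

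Pkm, at chr9:59656368-59679375 on the plus strand of GRCm38, encodes the enzyme that turns phosphoenolpyruvate into pyruvate. The gene value does not separate its splice forms. In Q1 its mean log2(FPKM + 1) was 5.61, 7.08, 6.62 and 6.91 in preparations 1 to 4, and in Q4 it was 4.19, 6.72, 5.87 and 5.55. In Q2 it was 5.19, 7.45, 6.03 and 6.76, and in Q3 5.42, 7.42, 6.45 and 6.45. The groups overlapped, because preparation 1 was low and preparation 2 high in every quartile, while within each preparation Q4 was the lowest quartile. The difference between Q1 and Q4 was 0.97 (SE 0.27, 95% confidence interval 0.42 to 1.52, adjusted p = 0.0408, higher in 4 of 4 preparations). The slope was 0.28 per quartile (SE 0.09, adjusted p = 0.0676) and did not pass.

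From Q1 to Q4 the mean FPKM of Pkm was 123 ± 40.95, 124 ± 46.3, 131 ± 58.7 and 85.1 ± 35 (SD, n = 4). The gene was at 1 FPKM or more in 100% of Q1 cells and in 91.5% ± 7.0 of Q4 cells. The adjusted p of the Q1 to Q4 difference ran from 0.0339 to 0.562 over 15 alternatives and lay above the threshold in 12 of them, among them each left-out preparation (0.123, 0.0852, 0.110 and 0.239 without preparations 1 to 4), the fit without the replicate block (0.562) and the fit without cells that carried another cell type's markers (0.0515).

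**Figure D1:**
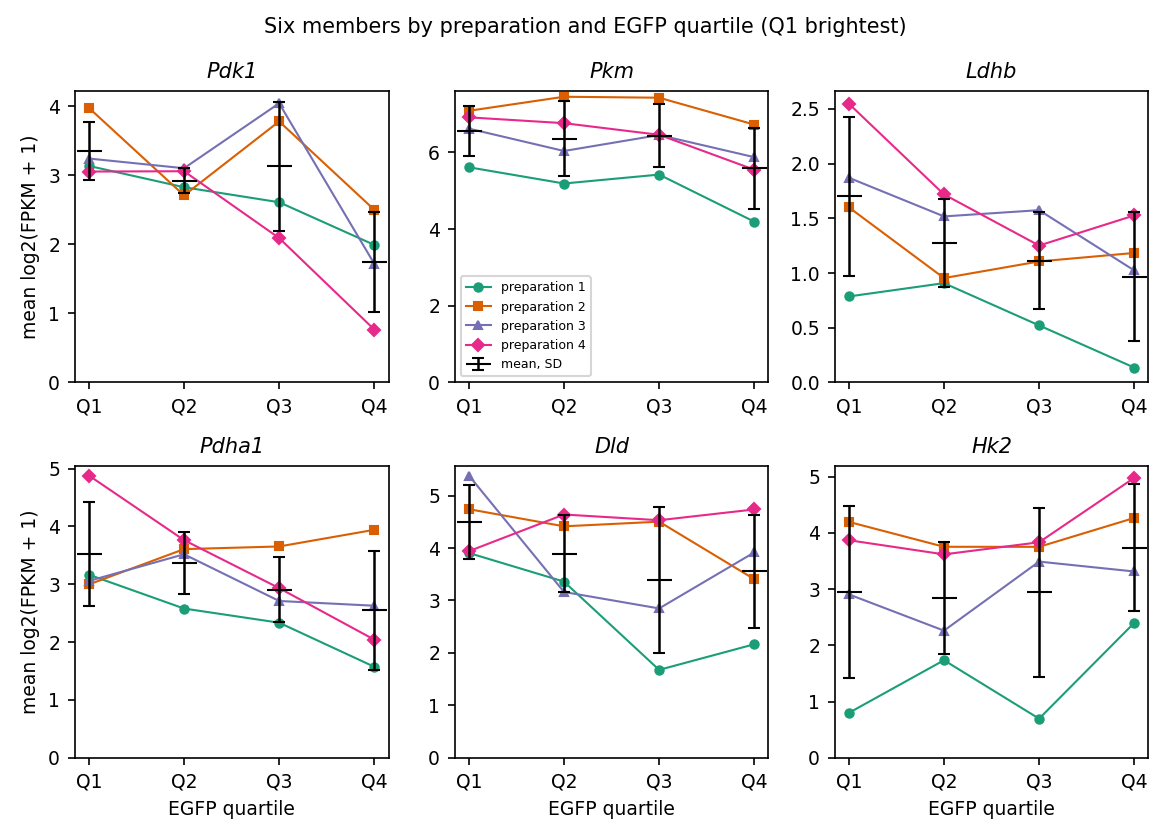
Mean log2(FPKM + 1) over the cells of each preparation (coloured lines) in EGFP quartiles Q1 (brightest) to Q4 (dimmest) for Pdk1, Pkm, Ldhb, Pdha1, Dld and Hk2; black marks give the mean and SD over 4 preparations. Pdk1 in Q1 (3.06 to 3.98) lies above Pdk1 in Q4 (0.77 to 2.50) in every preparation, and Hk2 of preparation 1 lies below the other preparations.

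The other 4 members described in full were those with the next smallest p-values of the slope, and none of them passed the threshold. Ldhb encodes the lactate dehydrogenase subunit typical of lactate-using tissues such as heart. In preparations 1 to 4 it averaged 0.79, 1.60, 1.87 and 2.55 on the log2(FPKM + 1) scale in Q1, 0.91, 0.95, 1.52 and 1.72 in Q2, 0.52, 1.11, 1.57 and 1.25 in Q3 and, in Q4, 0.14, 1.18, 1.02 and 1.53. Each preparation was highest in Q1 apart from preparation 1, where Q2 stood above it. Q1 minus Q4 was 0.73 (SE 0.28, 95% confidence interval 0.17 to 1.30, adjusted p = 0.160), with a positive sign in 4 of 4 preparations.

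Pdha1, on the X chromosome, encodes the catalytic alpha subunit of pyruvate dehydrogenase, the protein that the kinases phosphorylate. Mean log2(FPKM + 1) in preparations 1 to 4 was 3.16, 3.00, 3.06 and 4.88 in Q1, 2.58, 3.61, 3.52 and 3.76 in Q2, 2.34, 3.65, 2.71 and 2.93 in Q3 and, in Q4, 1.57, 3.94, 2.63 and 2.04. Preparation 2 ran the other way from the other 3, and the groups overlapped. Q1 minus Q4 was 0.98 (SE 0.43, 95% confidence interval 0.10 to 1.86, adjusted p = 0.245) and the slope was 0.34 (SE 0.13, adjusted p = 0.151). Without preparation 2 the slope was 0.55 and passed (adjusted p = 0.0304), as it did with genes per cell as a covariate (0.61, adjusted p = 0.0188) and as shares of cells (7.80 points per quartile, adjusted p = 0.0471), over a range of 0.0188 to 0.750 in all alternatives. Exons of Pdha1 share 603 bases with Map3k15 on the opposite strand, and reads there cannot be told apart.

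Dld encodes the dihydrolipoamide dehydrogenase that pyruvate dehydrogenase shares with the other 2-oxoacid dehydrogenases. Preparations 1 to 4 had a mean log2(FPKM + 1) of 3.91, 4.74, 5.38 and 3.94 in Q1, 3.36, 4.41, 3.16 and 4.64 in Q2, 1.68, 4.50, 2.85 and 4.53 in Q3 and, in Q4, 2.17, 3.41, 3.92 and 4.74. In preparation 4 the dimmest quartile was the highest, against the other 3. The difference of 0.94 had a 95% confidence interval from -0.00 to 1.87 (SE 0.46, adjusted p = 0.307).

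Hk2, the hexokinase of insulin-sensitive and growing tissues, which binds mitochondria, was the member with the most negative difference. Its mean log2(FPKM + 1) was 0.80, 4.19, 2.91 and 3.87 in Q1, 1.74, 3.75, 2.26 and 3.62 in Q2, 0.70, 3.75, 3.49 and 3.83 in Q3 and, in Q4, 2.40, 4.26, 3.31 and 4.98. Q1 lay below Q4 in each of the 4 preparations, and the spread between preparations was larger than that step. Q1 minus Q4 was -0.80 (SE 0.37, 95% confidence interval -1.57 to -0.02, adjusted p = 0.288) and the slope was -0.25 (adjusted p = 0.280).

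**Figure D2:**
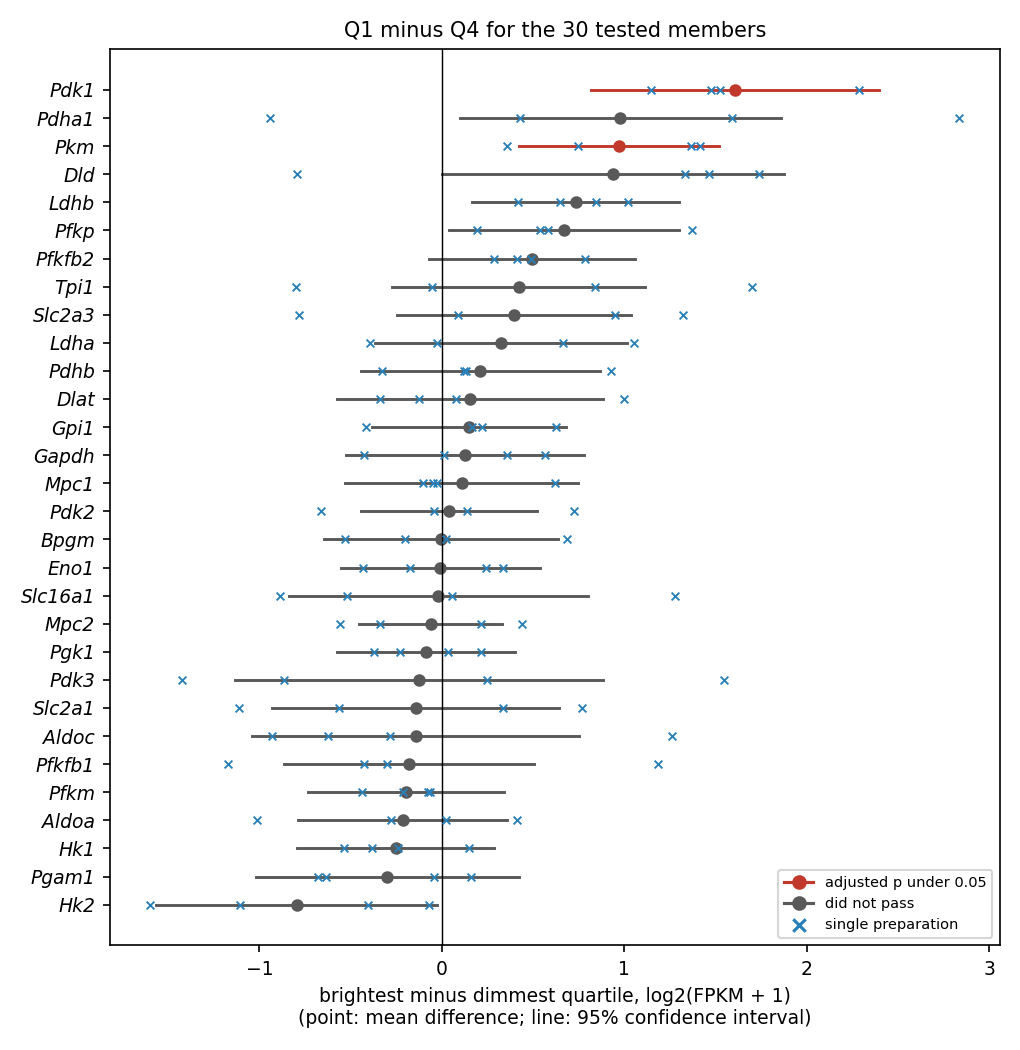
Q1 minus Q4 in mean log2(FPKM + 1) for the 30 tested members, with the 95% confidence interval as a line and the 4 preparations as crosses. Pdk1 (1.61) and Pkm (0.97), in red, passed the threshold, and the intervals of most other members span 0.

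Over the 30 tested members the median difference between Q1 and Q4 was 0.07, with 16 above 0 and 14 below, and over all 10411 tested genes it was 0.10, with 6207 above and 4204 below. An unadjusted p under 0.05 was found by limma for 6 of the 30 members, of which Hk2 was lower in Q1, and for 16.3% of all tested genes, a share near that of the members. Of all genes 283 were higher and 55 lower, but this balance depended on scaling: when each of the 16 means was centred on its median gene, the median difference moved to -0.08 and 57.8% of 251 calls were higher, Pdk1 kept its call (1.43, adjusted p = 0.0414) and Pkm lost it (0.79, adjusted p = 0.120). Between neighbouring quartiles 0 members passed in limma, where 0.0192% of all tested genes passed from Q1 to Q2, 0% from Q2 to Q3 and 0.00961% from Q3 to Q4. An unadjusted p under 0.05 was found for 3, 1 and 3 of the 30 members and for 5.73%, 7.37% and 6.58% of all tested genes.

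Both glucose transporters tested were found in a minority of cells. Slc2a1, the basal glucose transporter, averaged 12.3 ± 3.5 FPKM (SD, n = 4 preparations; 33.8% of cells at 1 FPKM or more), and Slc2a3, a high-affinity transporter, 5.44 ± 3.31 FPKM (19.9%). Both transporters were seen in 29 cells, Slc2a1 alone in 75, Slc2a3 alone in 32 and neither in 164. Here and below, seen means 1 FPKM or more. With the number of reads unknown, a transcript not seen in a cell may still have been present. Slc16a1, a lactate and pyruvate transporter, was the only monocarboxylate transporter of the 3 members above 1 FPKM on average, at 15.9 ± 2.4 FPKM in 45.9% of cells. Slc16a3, the lactate exporter of glycolytic cells, reached 1 FPKM in 4 cells and Slc16a7 in 0 cells. The differences of Q1 minus Q4 were -0.14 (95% confidence interval -0.93 to 0.64) for Slc2a1, 0.39 (-0.25 to 1.04) for Slc2a3 and -0.02 (-0.84 to 0.80) for Slc16a1.

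Hk2 was the leading hexokinase, at 37.2 ± 16.3 FPKM against 3.11 ± 0.69 FPKM for the ubiquitous Hk1, and the ranges over preparations did not overlap (14.01 to 48.7 and 2.39 to 4.03). Gpi1, which turns glucose 6-phosphate into fructose 6-phosphate, was at 86.1 ± 15.6 FPKM and in 99.6% of cells. At the committed step, Pfkp, the platelet-type phosphofructokinase, averaged 7.71 ± 2.67 FPKM and the muscle-type Pfkm 4.87 ± 2.95 FPKM, ranges that overlapped, and the liver-type Pfkl stood at 0.81 ± 0.30 FPKM and reached 1 FPKM in 16 cells. For Pfkp, whose exons share 748 bases with Pitrm1 on the opposite strand, Q1 minus Q4 was 0.67 (95% confidence interval 0.04 to 1.30, adjusted p = 0.268). Bifunctional enzymes set fructose 2,6-bisphosphate, the activator of that step. Of them Pfkfb1 averaged 14.4 ± 2.7 FPKM (22.3% of cells at 1 FPKM or more) and Pfkfb2 8.21 ± 0.59 FPKM (24.6%). The highest Pfkfb1 value of a cell was 916 FPKM, and its mean in Q4 of preparation 1 was 53.8 FPKM over 18 cells. The order of these means thus leans on few cells. Pfkfb3 and Pfkfb4 reached 1 FPKM in 16 and 12 cells.

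In lower glycolysis the aldolase gene Aldoa was at 321 ± 26 FPKM and the brain-type Aldoc at 97.5 ± 25.6 FPKM, without overlap between preparations. Both were seen in 225 cells, Aldoa alone in 67, Aldoc alone in 6 and neither in 2. Pgam1, the mutase that turns 3-phosphoglycerate into 2-phosphoglycerate, averaged 29.3 ± 5.4 FPKM, and Gapdh, which makes the first high-energy phosphate of the pathway, 24.1 ± 4.3 FPKM in 99.6% of cells. Bpgm, which makes 2,3-bisphosphoglycerate, was at 14.2 ± 3.4 FPKM and the triose phosphate isomerase gene Tpi1 at 12.4 ± 2.6 FPKM. Eno1, the main enolase, was at 3.61 ± 1.32 FPKM, Pgk1, which forms ATP, at 2.20 ± 0.74 FPKM, and the neuronal Eno2 reached 1 FPKM in 2 cells. Pkm averaged 116 ± 44 FPKM.

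Several of these levels cannot be assigned to a gene with certainty. Transcripts of 10 of the 37 members match another annotated gene at 95% identity or more over at least 200 bases, and how the deposited values treat reads that fit more than 1 place is not given in the sources used here. Gapdh has 77 such copies, 75 of them pseudogenes, Pgk1 and Ldha have 4 each, Eno1 has 3, Mpc1 has 2, and Gpi1, Tpi1, Pgam1, Ldhb and Pdhb have 1 each. Pgk1 matched a copy at 100% over 1255 bases and Eno1 matched a copy at 99.5% over 1736 bases. In 212 cells Eno1 was above 0 but under 0.01 FPKM, and the row of its copy Gm5506 was at 1 FPKM or more in 8 cells. Levels of these 10 members, among them the low values of Eno1, Pgk1 and Gapdh, are therefore uncertain, and Pdk1 and Pkm had no such copy. Exons also overlap other genes: Pfkfb2 shares 154 bases with Yod1 and Pfkfb1 123 bases with Apex2 on the opposite strand, Pfkfb2 shares 1262 bases with Gm29427 and Pkm 767 bases with Gm49759 on the same strand.

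**Figure D3:**
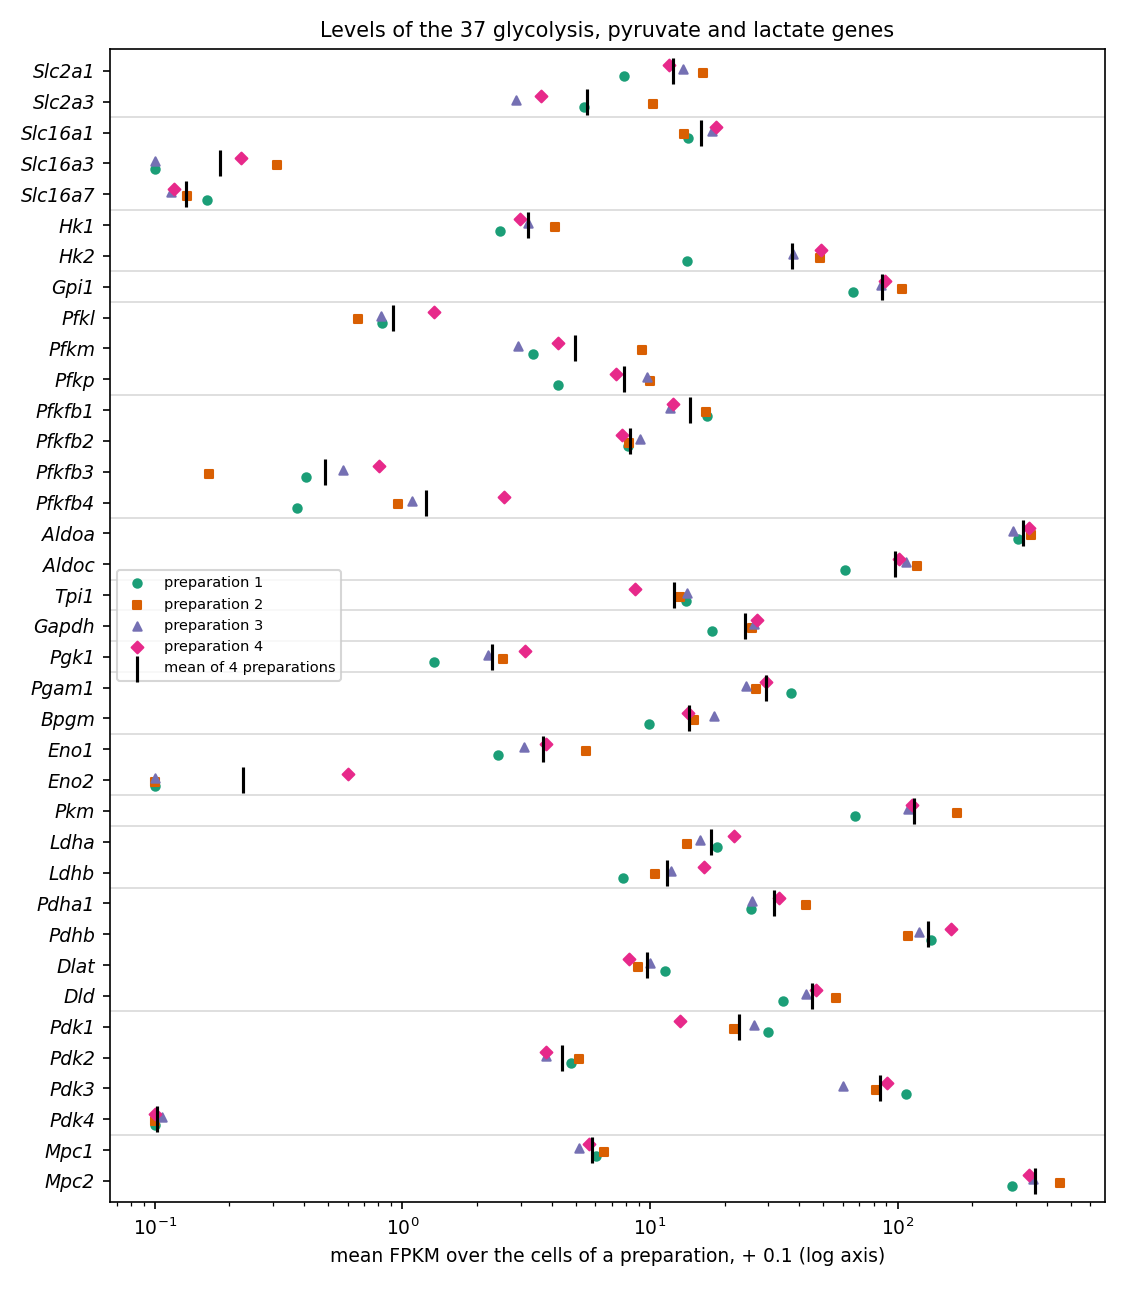
Mean FPKM over the cells of each preparation, plus 0.1 on a log axis, for the 37 members grouped by pathway step; symbols are the 4 preparations and the black bar is their mean. Mpc2 (357), Aldoa (321), Pdhb (133) and Pkm (116) had the highest means, and 6 members stood under 1 FPKM.

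At the fork of pyruvate, Ldha, the subunit typical of lactate-making muscle, averaged 17.5 ± 3.3 FPKM and Ldhb 11.6 ± 3.7 FPKM, ranges that overlapped between preparations (13.99 to 21.7 and 7.64 to 16.4). Both reached 1 FPKM in 35 cells, Ldha alone in 76, Ldhb alone in 50 and neither in 139. Ldha was highest in Q2, at a mean log2(FPKM + 1) of 2.43 ± 0.36 against 1.49 ± 0.71 in Q1, 1.79 ± 0.54 in Q3 and 1.17 ± 0.46 in Q4, and its Q1 minus Q4 difference was 0.32 (95% confidence interval -0.36 to 1.01, adjusted p = 0.700). Of the carrier subunits Mpc2 was at 357 ± 68 FPKM, the highest mean of the 37 members, and Mpc1, which forms a dimer with it, at 5.75 ± 0.58 FPKM. Their differences of Q1 minus Q4 were -0.06 (-0.45 to 0.33) and 0.11 (-0.53 to 0.75). Exons of Mpc1 share 480 bases with 4930506C21Rik on the opposite strand. Mpc1, Ldha and Ldhb also have near-identical copies, so the gaps in level between subunits are uncertain.

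Within the pyruvate dehydrogenase complex, Pdhb, the beta subunit, stood at 133 ± 23 FPKM, Dld at 44.9 ± 9.2, Pdha1 at 31.6 ± 8.1 and Dlat, the acetyltransferase core, at 9.57 ± 1.41 FPKM. The ranges of Dld (34.3 to 56.4) and Pdha1 (25.4 to 42.6) overlapped, and those of Pdhb and Dlat stood apart from both. Of the kinases Pdk3, also X-linked, was the highest at 84.9 ± 19.8 FPKM, ahead of Pdk1 at 22.7 ± 7.2 and Pdk2 at 4.29 ± 0.70 FPKM, with no overlap between preparations, and Pdk4, the starvation-induced kinase, reached 1 FPKM in 0 cells. Pdk1 and Pdk3 were both seen in 155 cells, Pdk1 alone in 38, Pdk3 alone in 81 and neither in 26. Q1 minus Q4 was -0.12 for Pdk3 (95% confidence interval -1.13 to 0.88) and 0.04 for Pdk2 (-0.44 to 0.52). The interval of Pdk1 (0.82 to 2.40) overlapped that of Pdk3, and the difference between the kinases was not tested.

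More members differed between preparations than between Q1 and Q4, and the same held for all tested genes (26.9% against 3.25%). At an adjusted p under 0.05, 10 of the 30 tested members (33.3%) differed between preparations, against 26.9% of all tested genes. They were Hk2, Aldoa, Aldoc, Pgk1, Bpgm, Pkm, Ldhb, Pdhb, Dld and Mpc2. On the log2(FPKM + 1) scale preparation 1 was the lowest of the 4 in each of the 10. In mean FPKM it was not the lowest for Pdhb (135.7 against 110.3 in preparation 2 and 122.1 in preparation 3). Nor was it for Aldoa (305.3 against 292.5 in preparation 3). Hk2 averaged a log2(FPKM + 1) of 1.41 in preparation 1 and 3.99, 2.99 and 4.07 in preparations 2 to 4 (adjusted p = 6.9e-05), and Pkm averaged 5.10 against 7.17, 6.24 and 6.42 (adjusted p = 8.7e-05). Aldoc averaged 3.18 against 5.56, 4.97 and 5.48 (adjusted p = 0.00083). Preparation 1 also had the fewest genes per cell, and without it 0 of the 30 members and 2 of all tested genes passed. Relative depth averaged 1.05 in preparation 1 and 0.85, 1.01 and 1.18 in preparations 2 to 4. The part of genes per cell or depth in these levels was not tested.

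**Figure D4:**
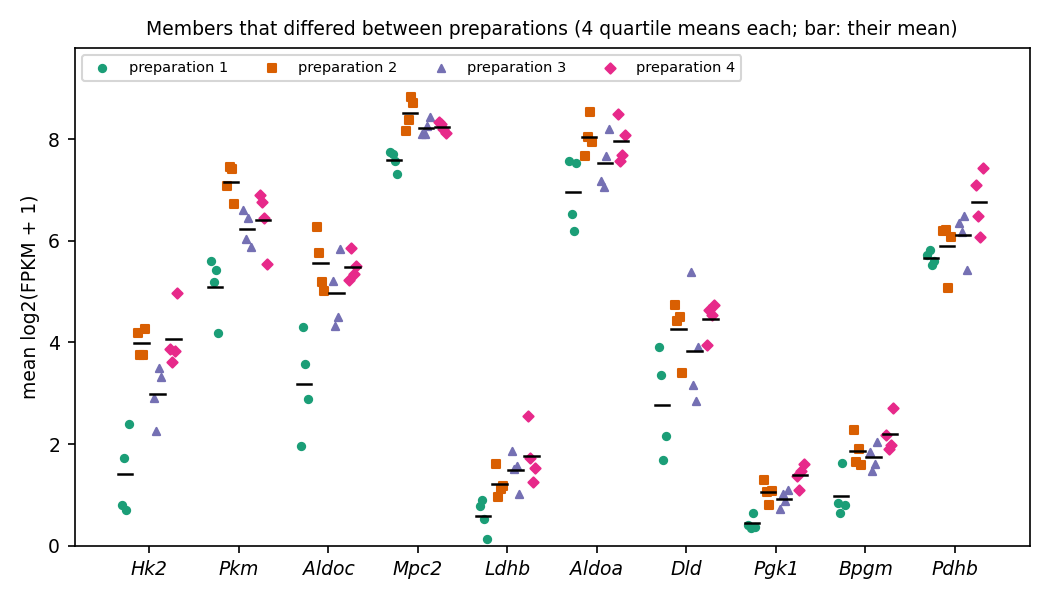
Mean log2(FPKM + 1) of the 10 members that differed between preparations, in order of adjusted p; each symbol is 1 quartile of a preparation and each bar the mean of its 4 quartiles. Preparation 1 (circles) has the lowest mean for every gene shown, for example 1.41 against 2.99 to 4.07 for Hk2.

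From cell to cell the measured values of the members were at most weakly correlated. After the mean of each preparation and quartile was subtracted, the correlation of log2(FPKM + 1) across 300 cells ran from -0.17 to 0.21 over 435 pairs of tested members, with a median of 0.02. The highest was between Gpi1 and Pdhb, and 2 pairs exceeded 0.2. Both genes of a pair share the library and depth of each cell, and correlations this weak in sparse values are no finding. The correlation of a member with the number of genes per cell ran from -0.02 for Pdk1 to 0.29 for Hk2. The 5 genes most like Pdk1 by the same measure over 300 cells were Morc1 (0.26), Rrp15 (0.25), Pip4k2a (0.23), Smim7 (0.22) and Ppm1b (0.22). These were picked as the highest values among the tested genes, and whether they exceed chance was not tested.

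Around the 37 members, 8 lists of related genes held 119 distinct genes, of which 79 were tested; over the slope across quartiles 2 were higher and 1 was lower in brighter cells, where 3.77% of all tested genes were higher and 0.74% lower. Pdha2, the autosomal copy of Pdha1 that takes over when the X chromosome is silenced in meiosis, was higher in bright cells. Its mean log2(FPKM + 1) was 1.08, 2.32, 3.17 and 3.32 in Q1 and 0.36, 0.81, 0.92 and 1.30 in Q4. All preparations were higher in Q1, and the groups overlapped through preparation 1. The slope was 0.55 per quartile (SE 0.11, adjusted p = 0.00368, positive in 4 of 4) and Q1 minus Q4 was 1.62 (SE 0.37, adjusted p = 0.0117). The call of the slope was lost without preparation 3 (0.49, adjusted p = 0.0531) and for the log2 of mean FPKM (0.51, adjusted p = 0.0604), over a range from 0.00228 to 0.0604. The Q1 to Q4 difference lost its call in 6 of 14 alternatives (adjusted p from 0.00702 to 0.142), among them leaving out preparation 3 or 4 (0.113 and 0.0722).

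Pdha1 and Pdha2 were both seen in 79 cells, Pdha1 alone in 107, Pdha2 alone in 29 and neither in 85. The other testis isozymes did not pass: of 9 listed, 4 were tested, and Pgk2 and Gapdhs reached 1 FPKM in 13 and 3 cells. Of the 4 tested, Pdha2 among them, 2 had a positive and 2 a negative slope. The summed level of the 9 pachytene spermatocyte markers was 11.2 to 47.1 FPKM over the preparations in Q1 and 12.05 to 92.2 FPKM in Q4, with Tcte3 at 0 in every cell. Its part in the Pdha2 result was not tested.

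Mlx, the dimer partner of the glucose-sensing factors of the Mondo family, was the gene of the list of glycolysis regulators that passed. Its mean log2(FPKM + 1) was 2.05, 3.29, 3.80 and 3.49 in Q1 and 1.59, 1.50, 1.84 and 1.89 in Q4, without overlap. The slope was 0.45 (SE 0.12, adjusted p = 0.0272, positive in 4 of 4), and 10 of the 15 alternatives ended that call, with adjusted p from 0.0105 to 0.388. These included leaving out preparation 2, 3 or 4 (adjusted p = 0.122, 0.212 and 0.116).

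Bnip3, a mitophagy receptor and hypoxia target, moved the other way. Its mean log2(FPKM + 1) was 4.95, 4.37, 4.11 and 4.86 in Q1 and 6.65, 5.85, 6.20 and 7.03 in Q4, without overlap. The slope was -0.66 per quartile (SE 0.11, adjusted p = 0.000576, negative in 4 of 4). It lost its call in 1 of 15 alternatives, the share of cells at 1 FPKM or more (adjusted p = 0.120). Bnip3 was the 1 gene of 10 tested hypoxia targets outside glycolysis that passed.

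The other lists held no call. For the slope, 0 of 10 tested further glycolysis and gluconeogenesis enzymes passed, 0 of 15 genes of pyruvate, lactate and acetyl-CoA handling, 0 of 9 pentose phosphate genes and 0 of 17 citric acid cycle genes, with an unadjusted p under 0.05 by limma for 2, 4, 0 and 3 of them and for 17.7% of all tested genes. None of the 11 other glucose transporter genes was tested, since each reached 1 FPKM in at most 18 cells.

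**Figure D5:**
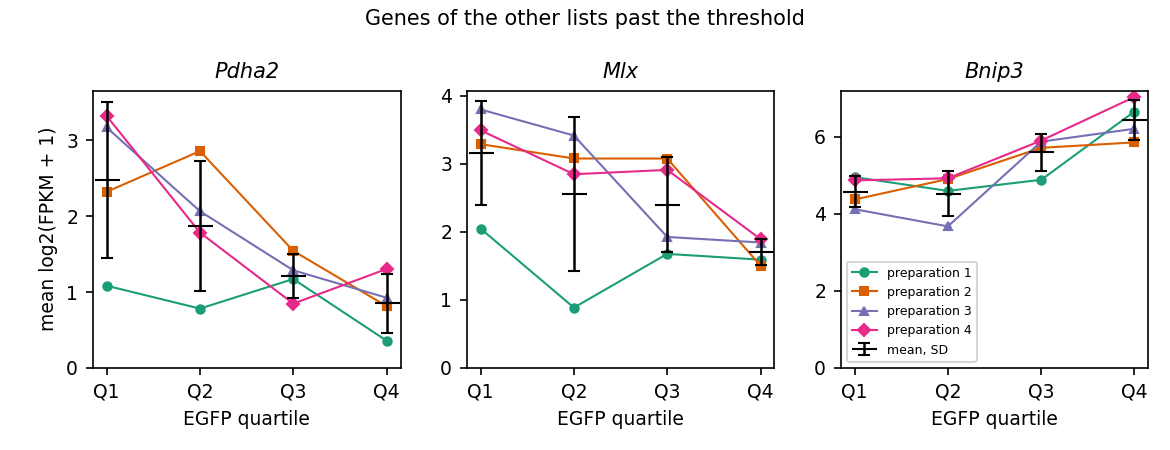
Mean log2(FPKM + 1) by preparation (lines) and EGFP quartile, with mean and SD over 4 preparations in black, for the 3 genes of the other lists past the threshold. The means of Pdha2 and Mlx fall from Q1 to Q4 and Bnip3 climbs, from 4.11 to 4.95 in Q1 to 5.85 to 7.03 in Q4.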

How the data were processed

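Single cells were profiled by C1 RNA-seq. The deposited table holds FPKM values per gene name and cell; the unit is inferred, as the header gives none and Cufflinks stands in the submitters' processing notes beside TopHat, FastQC and Picard, with builds mm10 and GRCm38 and no versions. No column lacked a sample. No count model was fitted, for want of counts, and Id4 and the mitochondrial genome are not analysed here. Values were averaged as log2(FPKM + 1) over the 15 to 22 cells of each preparation and quartile (16 means); differences on this scale understate changes of low genes. The filter kept the 10411 genes that reached 1 FPKM in 30 or more cells. limma 3.58.1 in R 4.3.3 was fitted with quartile and preparation as a block, moderated variances with trend and robust settings, and Benjamini-Hochberg adjustment over all tested genes, threshold 0.05; the code was checked on simulated data. The slope is per step to the next brighter quartile. Quartiles of a preparation were taken to share a suspension, which the labels do not state, hence the block. Correlations of same-preparation deviations ran from 0.0112 to 0.360. Low values put cells at relative depths of 0.363 to 2.01, with a median of 34.4% of compared genes at the common step, and whole reads were not recovered. Copies were sought with blastn 2.17.0+ in GENCODE vM21 transcripts, promoters taken from RefSeq. Members and lists were chosen with earlier results of these data known. Values in full are given for members past the threshold and the next smallest slope p up to 6, and for each other list those past it and the 2 smallest slope p.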

Additional observations from a re-analysis of the deposited data

Results flagged for a closer look

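Groups of 4 values, 54 in all, were examined for a value far from the other 3, and 3 had such a value. Chance gives about 1 group in 20, which is near the share found, so these values may be chance. Pdha1 had a mean log2(FPKM + 1) of 4.88 in Q1 of preparation 4, against 3.00 to 3.16 in the other preparations. Hk2 had 0.70 in Q3 of preparation 1, against 3.49 to 3.83 in the others. Gapdh had a mean of 17.6 FPKM in preparation 1, against 25.7 to 26.95 FPKM in the others. Both low values come from the preparation with the fewest genes per cell, and the part of that in them was not tested.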

How the results depend on the processing

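None of the genes with values in full and none of the 3 called list genes changed its direction under the alternatives run. Of the members, the count past the threshold between Q1 and Q4 (2) and over the slope (1) became 1 and 0 with a pseudocount of 10, 0 and 0 with no filter, 0 and 0 with no replicate block, 1 and 0 after centring on the median gene, 0 and 0 for the log2 of mean FPKM, 1 and 2 as shares of cells, 1 and 0 without cells that carry another cell type's markers, and 1 for Q1 against Q4 with genes per cell as a covariate, where the gene was Pdha1 and not Pdk1 or Pkm. Leaving out a preparation gave 0 to 1 for either. Of all genes, 338 and 470 became 177 and 274 with no filter, 173 and 232 with the stricter filter of 150 cells (5045 genes tested), 99 and 177 with no replicate block, 135 and 197 with the covariate, 80 and 113 for the log2 of mean FPKM and 202 for Q1 against Q4 as shares; leaving out a preparation gave 137 to 270 and 176 to 354. The count of the other lists (3) became 5 after centring and 1 for the log2 of mean FPKM, and 1 to 5 without a preparation. The differences between preparations (10 members, 2804 genes) became 5 and 1181 with a pseudocount of 10, 3 and 1185 after centring, 1 and 129 for the log2 of mean FPKM, 1657 genes with no filter and 4374 as shares, and 0 to 13 members and 2 to 3493 genes without a preparation. With no replicate block Mlx and the Q1 to Q4 difference of Pdha2 also lost their calls (adjusted p = 0.250 and 0.0905; slope of Mlx 0.170), and the block changed no call of the other genes with values in full. The causes were not tested. The 4 preparations, 15 to 22 cells per mean and unknown read depth limit what can be detected: the 95% confidence intervals of Q1 minus Q4 of members that did not pass reach up to 1.87, for Dld.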

Other observations

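Among the related genes with the smallest slope p-values of their lists, none but Pdha2, Mlx and Bnip3 passed the threshold, and these values describe the nearest ones. Suclg2, a succinate-CoA ligase subunit of the citric acid cycle, averaged 1.45 ± 0.53 on the log2(FPKM + 1) scale in Q1 and 2.66 ± 0.46 in Q4 (SD over 4 preparations), without overlap, with a slope of -0.35 (adjusted p = 0.0701). Dlst, the transferase of the 2-oxoglutarate dehydrogenase of the same cycle, had 3.09 ± 0.68 and 2.10 ± 0.65, with a slope of 0.35 (adjusted p = 0.122). Prkaa1, a catalytic subunit of the energy sensor AMPK, was at 0.23 ± 0.27 in Q1 and 0.82 ± 0.51 in Q4 (slope -0.19, adjusted p = 0.0669). Acss1, a mitochondrial acetyl-CoA synthetase, was at 0.89 ± 0.58 and 0.25 ± 0.23 (slope 0.23, adjusted p = 0.0509). Pdhx, which anchors Dld in the pyruvate dehydrogenase complex, was at 3.01 ± 0.89 in Q1 and 3.87 ± 0.56 in Q4 (slope -0.29, adjusted p = 0.155), against the sign of Dld and Pdha1.

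In the pentose phosphate pathway Pgd, which releases its second NADPH, was at 3.14 ± 0.18 in Q1 and 4.09 ± 1.04 in Q4 (slope -0.26, adjusted p = 0.284) and the transketolase gene Tkt at 0.73 ± 0.35 and 0.57 ± 0.36 (slope 0.08, adjusted p = 0.610). Galm, the aldose mutarotase, had a slope of -0.15 (adjusted p = 0.257), the glucose 6-phosphatase gene G6pc3 -0.27 (adjusted p = 0.255), the prolyl hydroxylase gene P4ha2 -0.23 (adjusted p = 0.114) and the transketolase-like gene Tktl2 0.13 (adjusted p = 0.674).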
